A study of Mus musculus with 88 samples.

Results

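Wild-type (WT) E14 mouse embryonic stem cells were compared before differentiation and after 5 h in a medium that directs them toward endoderm. The samples were chosen by their labels, as the undifferentiated and the 5 h WT libraries of the endoderm series, which gives 4 libraries of the 88 samples of the study, 2 in each group. The study followed WT cells and cells that lack a subunit of Polycomb repressive complex 2 (PRC2) through embryoid bodies and through directed differentiation toward endoderm or mesoderm. In the endoderm series, WT, Mtf2 null, and Jarid2 null cells were each sequenced undifferentiated and at 5, 24, and 48 h, in 2 libraries per line and time. E14 is a line of the 129/Ola strain, labelled wild type. Undifferentiated cells were kept in serum with leukemia inhibitory factor (LIF). For the 5 h group, cells were seeded, washed on the next morning, and given the factors of the anterior primitive streak step, which are Activin A, the GSK3 inhibitor CHIR99021, and FGF2. The wash, the time in new medium, and the 3 factors came together, so their effects cannot be told apart, and whether the base medium still held serum and LIF is not given in the sources used here. The WT line is 1 line, and the study calls the duplicates technical. The p-values therefore measure a spread between duplicate libraries, pooled over all libraries of a fit, and not between separate cultures.

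Several pathways meet in this step. LIF acts through its receptor and gp130 on the kinase JAK and the transcription factor STAT3, which drives feedback genes such as Socs3 and holds mouse embryonic stem cells in the naive state. Activin A binds receptors that it shares with Nodal and activates SMAD2 and SMAD3, which act on DNA together with FOXH1. CHIR99021 stops GSK3 from marking beta-catenin for destruction, so that beta-catenin reaches TCF and LEF factors and turns on Wnt target genes such as Axin2. In the embryo, Nodal, Wnt, and FGF signals together form the primitive streak, from which definitive endoderm arises. Glycolysis genes come into the account because many of them, like Bnip3 and Egln3, are targets of the hypoxia-inducible factors (HIFs), which are stable when oxygen is low.

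RNA was depleted of ribosomal RNA and sequenced, and the deposited values are estimated counts per gene. The WT libraries held 10256943 and 9889592 counts undifferentiated and 12523519 and 11900266 at 5 h, within a range of 9889592 to 16372804 for the series. Levels are given as CPM, the depth-normalized read count after TMM scaling for library composition, replicate 1 first, and gene lengths were not divided out, so levels are compared between samples and not between genes. The libraries carried the defining genes of embryonic stem cells: Pou5f1 was at 834 and 722 CPM undifferentiated and 771 and 808 CPM at 5 h, and Sox2, Nanog, Esrrb, Zfp42, and Utf1 all exceeded 100 CPM in each of the 4 libraries. The undifferentiated duplicates lay further apart than the 5 h duplicates. The SD of the log2 difference between duplicates was 0.335 undifferentiated and 0.209 at 5 h over the 10837 genes at 5 CPM or more. Undifferentiated replicate 2 was the further of the pair from 5 h replicate 1, with a root mean square log2 distance of 0.63 against 0.478. Among the genes of the lists and of the largest changes, the value without that library is given for most whose call was lost without it.

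Of 54393 genes listed, 19261 had enough counts to be tested. At the limits that the study used for its pairwise comparisons, which were 0.001 for the adjusted p and 1 for the size of the log2 fold change, 188 genes rose (0.976% of those tested) and 217 fell (1.13%). These genes are written as called, and "rose" and "fell" are used of them alone. With an adjusted p under 0.05 and no fold limit, 3438 genes were higher (17.8%) and 2381 lower (12.4%). The libraries of the groups did not overlap at 12814 genes (66.5%), so lack of overlap says little of a single gene. The median log2 fold change of all genes tested was -0.05. The count of calls depended on which undifferentiated library was used: without replicate 2 there were 125 calls, 53 higher and 72 lower, and without replicate 1 there were 734, 507 higher and 227 lower. Without 5 h replicate 1 there were 219 and without 5 h replicate 2 there were 245. All 405 called genes kept their direction and an adjusted p under 0.05 when any 1 of the 4 libraries was left out. The split also depended on the scaling. Upper quartile scaling moved the median of all genes by -0.129 and gave 117 higher and 337 lower, so that 25.8% of its calls were higher against 46.4% with TMM. A further property moved with the comparison: the called genes that rose had a median exon length of 5369 bases and those that fell of 3093, against 3662 for genes not called. Over the 10837 genes at 5 CPM or more, the tenth with the shortest exons had a median log2 fold change of -0.382 and the tenth with the longest of 0.243. The part of length in the gene results was not tested.

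**Figure D1:**
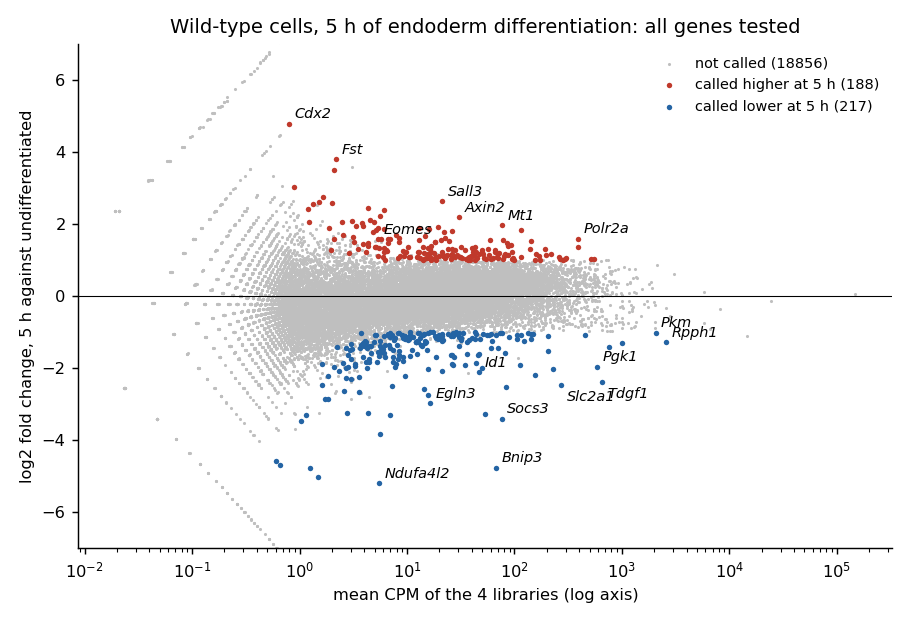
Each point is 1 of the 19261 genes tested, placed by its mean CPM in the 4 WT libraries (log axis) and its log2 fold change at 5 h against undifferentiated cells, red points are the 188 genes called higher, blue points the 217 called lower, and 23 genes lie beyond the plotted limit of 7 in size. Bnip3 and Slc2a1 lie well below 0 at high CPM, and Axin2 and Sall3 lie well above it.

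Genes were grouped in lists by pathway, cell type, or function. The calls of each list are to be read beside the 0.976% of all genes tested that rose and the 1.13% that fell. Of these lists, that of glycolysis and hypoxia had the most called members. Of its 24 genes 23 were tested, and 10 fell while 0 rose, where 1.13% of all genes tested fell. The median log2 fold change of the list was -0.84, against -0.05 for all genes tested. Among the 15 genes of glucose transport and glycolysis, Slc2a1, Pfkl, Pfkp, Tpi1, Pgk1, Pkm, and Ldha fell, and among the 8 tested genes of the hypoxia response, Bnip3, Egln3, and Vegfa fell. HIFs bind the letters ACGTG, and the promoters of 4 of these genes are printed here because the windows hold that core. Each window runs from 250 bases before to 50 after the RefSeq transcript start in GRCm38.p6, printed in the direction of the gene, and capitals mark ACGTG or its reverse complement CACGT.
Bnip3, chr7:138909457-138909756, minus strand: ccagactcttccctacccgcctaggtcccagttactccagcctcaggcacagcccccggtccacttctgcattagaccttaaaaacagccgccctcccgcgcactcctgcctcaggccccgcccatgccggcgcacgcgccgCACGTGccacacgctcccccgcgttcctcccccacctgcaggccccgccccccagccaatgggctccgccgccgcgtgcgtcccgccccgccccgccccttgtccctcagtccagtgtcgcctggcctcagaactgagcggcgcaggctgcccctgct
Slc2a1, chr4:119108495-119108794, plus strand: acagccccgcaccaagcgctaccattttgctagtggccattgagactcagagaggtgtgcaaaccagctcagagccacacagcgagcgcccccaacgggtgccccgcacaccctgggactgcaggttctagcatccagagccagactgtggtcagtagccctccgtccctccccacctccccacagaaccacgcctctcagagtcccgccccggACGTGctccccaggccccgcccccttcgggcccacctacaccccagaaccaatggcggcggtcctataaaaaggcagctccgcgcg
Pgk1, chrX:106186850-106187149, plus strand: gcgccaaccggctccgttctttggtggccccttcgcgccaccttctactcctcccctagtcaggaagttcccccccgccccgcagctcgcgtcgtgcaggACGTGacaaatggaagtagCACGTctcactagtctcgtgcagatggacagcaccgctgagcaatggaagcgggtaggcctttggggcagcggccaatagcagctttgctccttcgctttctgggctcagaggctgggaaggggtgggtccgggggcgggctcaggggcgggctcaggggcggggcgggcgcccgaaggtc
Egln3, chr12:54203825-54204124, minus strand: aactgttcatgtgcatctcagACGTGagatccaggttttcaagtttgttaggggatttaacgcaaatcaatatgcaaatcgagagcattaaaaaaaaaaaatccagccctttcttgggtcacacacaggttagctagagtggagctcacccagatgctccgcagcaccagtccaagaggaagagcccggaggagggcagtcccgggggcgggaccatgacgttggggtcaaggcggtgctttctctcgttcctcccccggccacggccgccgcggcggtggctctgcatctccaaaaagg

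In the Bnip3 window the capitals are 2 overlapping matches, 1 on each strand, that start 108 and 107 bases before the transcript start, and the Pgk1 window has matches that start 150 and 131 bases before it. The Slc2a1 match starts 36 bases and the Egln3 match 229 bases before the start. Of the 10 genes of the list that fell, 7 had the core in a window on either strand, as did 8 of the 12 with a window that were not called. The core was present in 19.6% of all 32851 windows, in 24.3% of windows of genes tested, in 31.2% of windows of genes that fell, and in 22.2% of windows of genes that rose. A match of 5 letters is a description of the window and does not show that a factor bound there.

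Bnip3 (ENSMUSG00000078566, chromosome 7 from 138890836 to 138909519 in GRCm38), a mitochondrial protein that targets mitochondria for degradation, was at 122 and 138 CPM in the undifferentiated libraries and at 4.71 and 4.78 CPM at 5 h. The groups were far apart, and the duplicates of each lay close together (log2 fold change -4.77, SE 0.18, adjusted p = 3.92e-13, 27.3-fold lower at 5 h). Egln3, a prolyl hydroxylase that marks HIFs for destruction, was at 31.4 and 26.4 CPM and then 3.63 and 3.69 CPM (log2 fold change -2.98, SE 0.18, adjusted p = 6.53e-10). Vegfa, which encodes a growth factor for blood vessels, was at 51.4 and 54.4 CPM and then 23.4 and 22.0 CPM (log2 fold change -1.22, SE 0.16, adjusted p = 1.71e-05). Ankrd37, another HIF target, was at 3.88 and 5.53 CPM undifferentiated and 0.772 and 1.42 CPM at 5 h but was not called (adjusted p = 0.00155). Pdk1, the kinase that keeps pyruvate out of the citric acid cycle, had a log2 fold change of -0.52 and did not pass the fold limit. Outside the list, the rule for the largest folds named 2 more genes with links to this metabolism. Slc16a3, which encodes a lactate exporter, was at 104 and 91.5 CPM and then 10.3 and 9.88 CPM (log2 fold change -3.27, SE 0.15, adjusted p = 6.51e-12). Ndufa4l2, a mitochondrial protein that HIFs induce, was at 12.5 and 8.99 CPM and then 0.154 and 0.419 CPM, a log2 fold change of -5.20 that was -6.06 without 5 h replicate 2.

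Slc2a1 (chromosome 4 from 119108711 to 119137983), which encodes the glucose transporter GLUT1, was at 493 and 430 CPM undifferentiated and 82.6 and 83.8 CPM at 5 h (log2 fold change -2.47, SE 0.10, adjusted p = 2.19e-12, 5.54-fold lower). Tpi1, triosephosphate isomerase, was at 371 and 361 CPM and then 87.9 and 91.7 CPM (log2 fold change -2.03, SE 0.11, adjusted p = 6.9e-11). Pgk1 (chromosome X from 106187100 to 106203699), the first enzyme of the pathway that yields ATP, was at 847 and 1023 CPM and then 227 and 254 CPM (log2 fold change -1.96, SE 0.12, adjusted p = 5.61e-10). In each of these genes, as in all 217 that fell, both 5 h libraries lay below both undifferentiated libraries. Here the gap was larger than the difference between duplicates. Ldha, which makes lactate from pyruvate, was at 1127 and 1081 CPM and then 404 and 419 CPM (log2 fold change -1.42), and the phosphofructokinase Pfkp was at 306 and 302 CPM and then 108 and 103 CPM (log2 fold change -1.53). Pkm, pyruvate kinase, and Pfkl passed the fold limit by little, with log2 fold changes of -1.02 and -1.06. Without undifferentiated replicate 1 these were -0.96 and -0.81, under the limit, and the list had 8 genes called lower, against 10 without replicate 2. Without 5 h replicate 1, Pkm was at -0.98 and the list had 9.

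The size of the change varied within the list. At an adjusted p under 0.05, 17 of the 23 tested genes were lower and 0 higher, where 12.4% of all genes tested were lower. Some members changed little. Gapdh was at 2318 and 1856 CPM undifferentiated and 1830 and 1878 CPM at 5 h (log2 fold change -0.17), Pgam1 at 706 and 518 CPM and then 551 and 559 CPM (-0.14), and the hexokinase Hk1 at 42.2 and 31.1 CPM and then 41.2 and 45.1 CPM (0.24). None of the 3 passed an adjusted p of 0.05. Among the hypoxia response genes, Pfkfb4 had log2 fold changes of 0.70 without undifferentiated replicate 1 and 0.31 without replicate 2. Those of Car9 were 0.79 and -0.51, so its direction depended on the library. The aldolase Aldoa, the enolase Eno1, the hexokinase Hk2, and the glucose transporter Slc2a3 had log2 fold changes of -0.71, -0.53, -0.70, and -0.84, each with an adjusted p under 0.05 and under the fold limit. Several of these enzymes have processed pseudogene copies, and reads that both could give were divided by the authors' estimate.

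**Figure D2:**
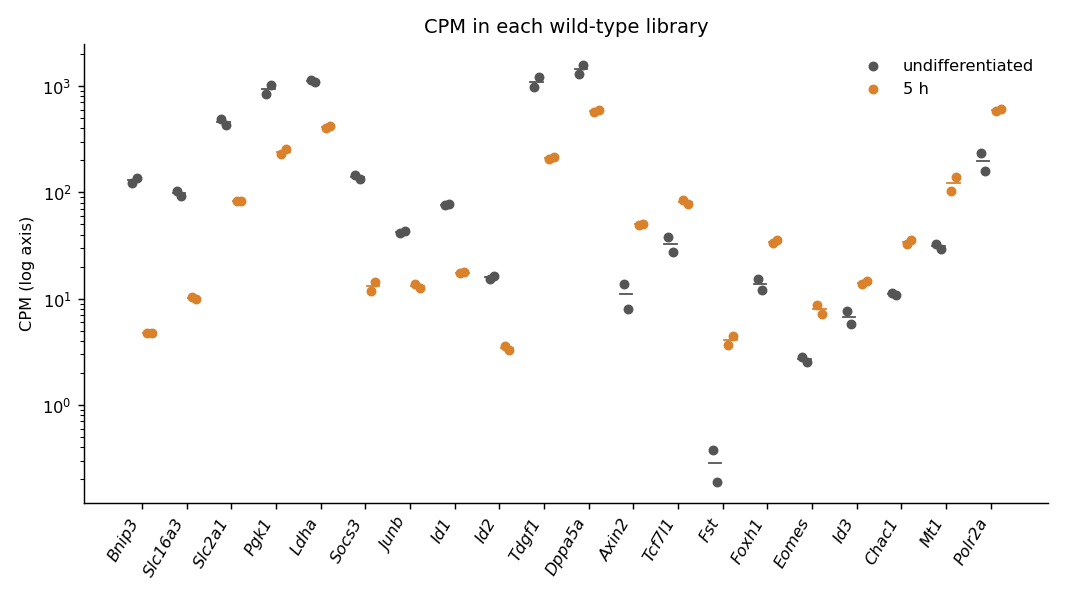
CPM of 20 genes on a log axis in each WT library, with gray points for undifferentiated cells, orange points for 5 h, and a short line at the mean of each pair. Bnip3, Slc16a3, Slc2a1, Pgk1, Ldha, Socs3, Junb, Id1, Id2, Tdgf1, and Dppa5a have both 5 h points below both undifferentiated points, and the genes from Axin2 to Polr2a have them above.

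Later libraries of the series place these levels in time, as values with no test. Bnip3 was at 5.23 and 6.39 CPM at 24 h and 23.9 and 24.9 CPM at 48 h, still below the undifferentiated libraries. Slc2a1 was at 81.5 and 83.7 CPM and then 149 and 170 CPM, and Pgk1 at 221 and 255 CPM and then 354 and 395 CPM, so that both stayed near the 5 h level at 24 h and were above it at 48 h. Vegfa, by contrast, was at 27.2 and 27.9 CPM at 24 h and 69.6 and 101 CPM at 48 h, where both libraries were above the undifferentiated level.

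Of 15 genes of the LIF and STAT3 pathway, all tested, 4 fell and 0 rose, where 1.13% of all genes tested fell. None of the 4 receptor and transducer genes was called. The list had a median log2 fold change of -0.15, which was 0.12 without undifferentiated replicate 1 and -0.29 without undifferentiated replicate 2. The 4 are Socs3, Junb, Pim3, and Bcl3, all among the 11 feedback and target genes. The promoter of Socs3, the feedback inhibitor of the LIF receptor, is printed because it holds a STAT motif, TTCNNNGAA, in capitals, 154 bases before the transcript start of the window described above.
Socs3, chr11:117969317-117969616, minus strand: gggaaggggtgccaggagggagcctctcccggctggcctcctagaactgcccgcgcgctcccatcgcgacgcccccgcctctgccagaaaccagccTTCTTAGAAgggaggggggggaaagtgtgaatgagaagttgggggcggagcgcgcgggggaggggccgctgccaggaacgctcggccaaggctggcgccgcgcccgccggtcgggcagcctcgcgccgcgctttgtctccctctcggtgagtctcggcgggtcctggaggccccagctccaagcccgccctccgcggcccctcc

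Socs3 was at 145 and 133 CPM undifferentiated and at 11.9 and 14.3 CPM at 5 h (log2 fold change -3.41, SE 0.18, adjusted p = 5.31e-11, 10.6-fold lower), and the gap between the groups was many times that within them. Junb, a subunit of the transcription factor AP-1, was at 41.1 and 43.0 CPM and then 13.7 and 12.5 CPM (log2 fold change -1.68, SE 0.18, adjusted p = 2.34e-06). Pim3, a serine/threonine kinase, was at 133 and 110 CPM and then 37.0 and 44.1 CPM (log2 fold change -1.59, SE 0.12, adjusted p = 3.24e-08). Bcl3, a nuclear cofactor of NF-kB, was at 32.6 and 26.7 CPM and then 12.5 and 12.5 CPM (log2 fold change -1.25), and it kept a log2 fold change beyond 1 but not the adjusted p when undifferentiated replicate 1 (-1.08) or either 5 h library (-1.24 and -1.28) was left out. Cish, a further SOCS family member, was at 6.63 and 4.12 CPM and then 3.01 and 1.76 CPM and did not pass (adjusted p = 0.00227), though it was called lower under upper quartile scaling (-1.28). Of the target genes that are themselves factors of the naive state, Tfcp2l1 was at 364 and 234 CPM undifferentiated and 588 and 577 CPM at 5 h, a log2 fold change of 0.96 in the other direction. Without undifferentiated replicate 1 Tfcp2l1 was called higher (1.33), and the list then had 1 gene called higher and 3 lower. Klf4 was at 180 and 120 CPM and then 132 and 134 CPM, within the spread of the undifferentiated pair. The receptor chains Lifr and Il6st (gp130) had log2 fold changes of 0.21 and 0.66, and Stat3 of -0.15. Socs3 was the gene of the 4 whose window held the motif. Of the 9 genes of the list with a window that were not called, 1 held it, Cish. TTCNNNGAA was present in 8.3% of all windows, in 6.9% of windows of genes tested, and in 5.82% of windows of genes that fell. At 24 and 48 h Socs3 was at 9.96 and 8.24 CPM and 3.73 and 5.75 CPM, below its 5 h level in each library.

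Among 20 tested genes of the Nodal and Activin pathway, 3 rose and 1 fell, beside 0.976% and 1.13% of all genes tested. The median log2 fold change of the list was 0.47. The gene that fell was Tdgf1, which encodes the co-receptor that Nodal needs and Activin A does not. It was at 986 and 1215 CPM undifferentiated and 206 and 213 CPM at 5 h (log2 fold change -2.39, SE 0.14, adjusted p = 2.97e-10, 5.25-fold lower). Reads of Tdgf1 are shared with the copy Tdgf1-ps1, which had a log2 fold change of -2.53, so the pair fell but the parts are uncertain. Nodal itself was at 37.8 and 30.2 CPM and then 54.0 and 57.7 CPM, with a log2 fold change of 0.72 under the limit (adjusted p = 0.000129). Inhbb, which encodes an Activin subunit, was at 99.3 and 80.5 CPM and then 41.4 and 49.2 CPM, a log2 fold change of -0.99 that just missed it with TMM and passed under upper quartile scaling (-1.11) and library totals (-1.04), and it was at 5.59 and 3.96 CPM at 24 h.

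Fst, which encodes follistatin, a secreted protein that binds and blocks Activin, was at 0.379 and 0.187 CPM undifferentiated and 3.71 and 4.44 CPM at 5 h (log2 fold change 3.80, SE 0.56, adjusted p = 4.56e-05). Foxh1, the DNA-binding partner of SMAD2, was at 15.4 and 12.2 CPM and then 33.1 and 35.6 CPM (log2 fold change 1.31, SE 0.17, adjusted p = 1.35e-05). In both genes, as in all 188 that rose, the 5 h libraries lay above both undifferentiated ones. The fold of Fst rests on an undifferentiated level near 0. Without undifferentiated replicate 2 no gene of the list was called higher, since Fst was at 3.39 and Foxh1 at 1.16 with adjusted p-values of 0.00352 and 0.0013, and Tdgf1 was still called lower. Without 5 h replicate 1 or 2, 2 genes of the list were called higher, Fst and Foxh1. Lefty1 and Lefty2, the secreted Nodal inhibitors, were not called. Lefty2 was at 103 and 67.0 CPM undifferentiated, 89.4 and 97.0 CPM at 5 h, and 452 and 496 CPM at 24 h. The transducers Smad2, Smad3, and Smad4 had log2 fold changes of 0.37, 0.23, and 0.57.

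Of 22 tested Wnt pathway genes, 3 rose and 0 fell, where 0.976% of all genes tested rose and 1.13% fell. The list had a median log2 fold change of 0.63. Axin2, the feedback scaffold of beta-catenin destruction that is read as a general Wnt target, was at 13.8 and 8.06 CPM undifferentiated and 49.6 and 50.4 CPM at 5 h (log2 fold change 2.19, SE 0.19, adjusted p = 1.45e-07, 4.57-fold higher). Tnfrsf19, a Wnt-responsive receptor of the TNF receptor family, was at 1.71 and 2.81 CPM and then 9.11 and 7.12 CPM (log2 fold change 1.84, SE 0.24, adjusted p = 1.75e-05). Tcf7l1, the TCF factor that represses pluripotency genes in these cells, was at 38.1 and 27.6 CPM and then 83.8 and 78.2 CPM (log2 fold change 1.30, SE 0.16, adjusted p = 9.52e-06). The duplicates of these 3 genes lay well apart from the other group, and all 3 were called with any 1 library left out. The other TCF and LEF genes were not called, with log2 fold changes of 0.63 for Tcf7l2, 0.57 for Tcf7, and 0.46 for Lef1.

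Further Wnt targets were low in these cells, and their fold changes did not pass. Sp5 was at 0.379 and 0.562 CPM undifferentiated and 1.93 and 1.42 CPM at 5 h (adjusted p = 0.0184), Cdx1 at 1.33 and 1.12 CPM and then 3.47 and 3.94 CPM (adjusted p = 0.00387), and the ligand gene Wnt3 at 0.284 and 0.0937 CPM and then 1.08 and 1.34 CPM (adjusted p = 0.00303). Both 5 h libraries were above both undifferentiated libraries for each of the 3, but the groups did not overlap at 66.5% of all genes tested. Nkd2, an inhibitor of Wnt signaling, was at 1.99 and 2.06 CPM and then 0.849 and 1.09 CPM (log2 fold change -1.06). Axin2 was at 88.4 and 78.6 CPM at 24 h, the last sampled time of the step with CHIR99021, and at 8.58 and 5.27 CPM at 48 h, after the change to a medium without it. Sp5 followed the same order, at 7.56 and 8.82 CPM and then 0 CPM in both libraries. The TCF and LEF letters CTTTGA were in a window of 1 of the 3 genes that rose, Tnfrsf19. They were also in a window of 3 of the 11 genes with a window that were not called. They were in 16.0% of all windows, in 12.3% of windows of genes tested, and in 16.0% of windows of genes that rose.

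Among 20 FGF and ERK genes, 1 rose and 1 fell, beside 0.976% and 1.13% of all genes tested. The median log2 fold change was 0.26. Fgfr3, which encodes a receptor for FGFs, was at 12.8 and 12.0 CPM undifferentiated and 2.08 and 2.26 CPM at 5 h (log2 fold change -2.51, SE 0.25, adjusted p = 8.76e-07), and at 0.509 and 0.639 CPM at 24 h. Il17rd, also known as Sef, an inhibitor of FGF signaling, was at 47.7 and 39.0 CPM and then 98.3 and 99.8 CPM (log2 fold change 1.19, SE 0.14, adjusted p = 4.53e-06). The other feedback genes of ERK signaling were near their undifferentiated level, with log2 fold changes of 0.26 for the phosphatase Dusp6, -0.17 for Spry4, and 0.27 for Spry2. The ETS factor Etv5 was at 226 and 156 CPM and then 349 and 358 CPM, a log2 fold change of 0.89 that did not pass the fold limit.

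The Id genes, which encode dominant inhibitors of bHLH transcription factors and are direct targets of BMP signaling, went in both directions. Id1 was at 75.3 and 77.8 CPM undifferentiated and 17.3 and 17.8 CPM at 5 h (log2 fold change -2.12, SE 0.22, adjusted p = 1.3e-06). Id2 was at 15.4 and 16.4 CPM and then 3.55 and 3.27 CPM (log2 fold change -2.22, SE 0.22, adjusted p = 9.02e-07). Id3, by contrast, was at 7.58 and 5.81 CPM and then 13.7 and 14.7 CPM (log2 fold change 1.08), and Id4 was at 2.94 and 1.97 CPM and then 5.64 and 4.11 CPM (log2 fold change 0.99, not called). The rise of Id3 was not called under upper quartile scaling (0.95), without undifferentiated replicate 2 (0.90), or without 5 h replicate 2 (1.00). Of the 16 BMP genes these 3 were the called ones, and the list had a median log2 fold change of 0.08. The ligand Bmp4 had a log2 fold change of 0.11.

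Immediate early genes, which cells switch on within minutes of a stimulus, gave 1 rise and 1 fall among 19 tested, with a median log2 fold change of -0.07. Ier3, a stress-responsive survival gene, was at 12.9 and 12.6 CPM undifferentiated and 1.39 and 1.17 CPM at 5 h (log2 fold change -3.30, SE 0.29, adjusted p = 1.81e-07). Atf3, a transcription factor of the stress response, was at 1.42 and 1.31 CPM and then 4.94 and 5.70 CPM (log2 fold change 1.95, SE 0.39, adjusted p = 0.000847). The call of Atf3 was lost when any 1 of the 4 libraries was left out, with log2 fold changes of 1.82 to 2.06 and adjusted p-values above 0.001. Egr1 was at 5.40 and 5.15 CPM and then 1.39 and 1.51 CPM (adjusted p = 0.00466 with edgeR), and Fos at 1.51 and 1.03 CPM and then 0.695 and 0.67 CPM (adjusted p = 0.199). DESeq2 called 1 gene of the list higher and 3 lower, adding Egr1 (-1.87) and Zfp36 (-1.37), and scaling by library totals called 2 higher and 2 lower, adding Fosl1 (2.44) and Zfp36 (-1.42).

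Most pluripotency genes differed by less than the limit at 5 h. Of 15 genes of the naive state, 1 fell and 0 rose, and without undifferentiated replicate 1 Tfcp2l1 was also called higher (1.33). That gene was Dppa5a, which encodes an RNA-binding protein of pluripotent cells, at 1290 and 1580 CPM undifferentiated and 568 and 598 CPM at 5 h (log2 fold change -1.30, SE 0.13, adjusted p = 1e-06). Nanog was at 408 and 466 CPM and then 250 and 256 CPM, without overlap of the groups, as at 66.5% of all genes tested. Its log2 fold change of -0.79 (SE 0.11, adjusted p = 4.25e-05) did not reach the fold limit. Esrrb was at 444 and 288 CPM and then 546 and 541 CPM, above the undifferentiated libraries (log2 fold change 0.57, 0.93 without undifferentiated replicate 1 and 0.29 without replicate 2), and Klf2 had a log2 fold change of 0.55. At 48 h Nanog was at 108 and 95.8 CPM and Esrrb at 128 and 121 CPM. Of the 8 core pluripotency genes 0 were called by edgeR or DESeq2. With edgeR, 4 were higher and 1 lower at an adjusted p under 0.05, beside 17.8% and 12.4% of all genes tested. Pou5f1 had a log2 fold change of 0.02 (SE 0.12), and Sox2 was at 227 and 156 CPM and then 170 and 184 CPM, within the undifferentiated range.

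Genes of the formative epiblast, the state that follows the naive one, gave 0 calls by edgeR with TMM among 12. At an adjusted p under 0.05, 4 were higher and 2 lower, beside 17.8% and 12.4% of all genes tested. DESeq2 called Otx2 higher and Pou3f1 lower. With edgeR, upper quartile scaling and library totals each called Pou3f1 and Tcf15 lower, and the 4 libraries alone called Tcf15 lower (-1.01). Otx2 was at 1.71 and 1.499 CPM undifferentiated and 3.71 and 4.78 CPM at 5 h (log2 fold change 1.39, adjusted p = 0.00255) and reached 82.0 and 55.3 CPM at 48 h. Pou3f1 was at 7.10 and 5.62 CPM and then 2.86 and 2.85 CPM, lower in both 5 h libraries (adjusted p = 0.00127), and at 42.5 and 36.8 CPM at 48 h. The DNA methyltransferase gene Dnmt3b was at 100 and 78.5 CPM and then 162 and 155 CPM (log2 fold change 0.83, not called) and at 633 and 483 CPM at 48 h. Fgf5 stood at 0.0947 and 0 CPM and then 0.0772 and 0.251 CPM, at or near 0 in each library.

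Of 11 tested genes of the primitive streak, 1 rose. Eomes, a T-box factor that drives definitive endoderm and early mesoderm, was at 2.84 and 2.53 CPM undifferentiated and 8.80 and 7.20 CPM at 5 h (log2 fold change 1.57, SE 0.22, adjusted p = 2.7e-05). It was at 9.88 and 11.2 CPM at 24 h and 11.3 and 12.2 CPM at 48 h. Without undifferentiated replicate 2 its log2 fold change was 1.496 and without 5 h replicate 1 it was 1.43, each with an adjusted p above 0.001. T, which encodes Brachyury, was at 0.0947 and 0.281 CPM and then 1.24 and 1.09 CPM (log2 fold change 2.57, adjusted p = 0.0051), and at 27.0 and 22.3 CPM at 24 h. Mixl1 was at 0.474 and 0.562 CPM and then 0.618 and 0.419 CPM and showed no difference that could be detected at these counts.

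Of 11 tested genes of definitive endoderm, 0 were called higher and 1 lower by edgeR and by DESeq2. With edgeR, 2 were higher and 1 lower at an adjusted p under 0.05. These counts are near the shares of all genes tested at that p, 17.8% higher and 12.4% lower. Sox17 was at 1.42 and 0.0937 CPM undifferentiated and 0.309 and 0.754 CPM at 5 h, and at 0.173 and 0.377 CPM at 48 h. Foxa2 was at 0 and 0.281 CPM and then 0.849 and 0.335 CPM (adjusted p = 0.121). The log2 fold change of Sox17 was 2.38 without undifferentiated replicate 1 and -1.42 without replicate 2, so its direction depended on the library. No change of either gene could be told from the spread between libraries at these counts. The gene called lower was Trh, which encodes thyrotropin-releasing hormone and is also expressed in undifferentiated cells, at 156 and 139 CPM and then 61.7 and 68.5 CPM (log2 fold change -1.18). Without 5 h replicate 1 its log2 fold change was -1.10 and not called. At 24 h Trh was at 395 and 402 CPM, above the undifferentiated libraries.

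**Figure D3:**
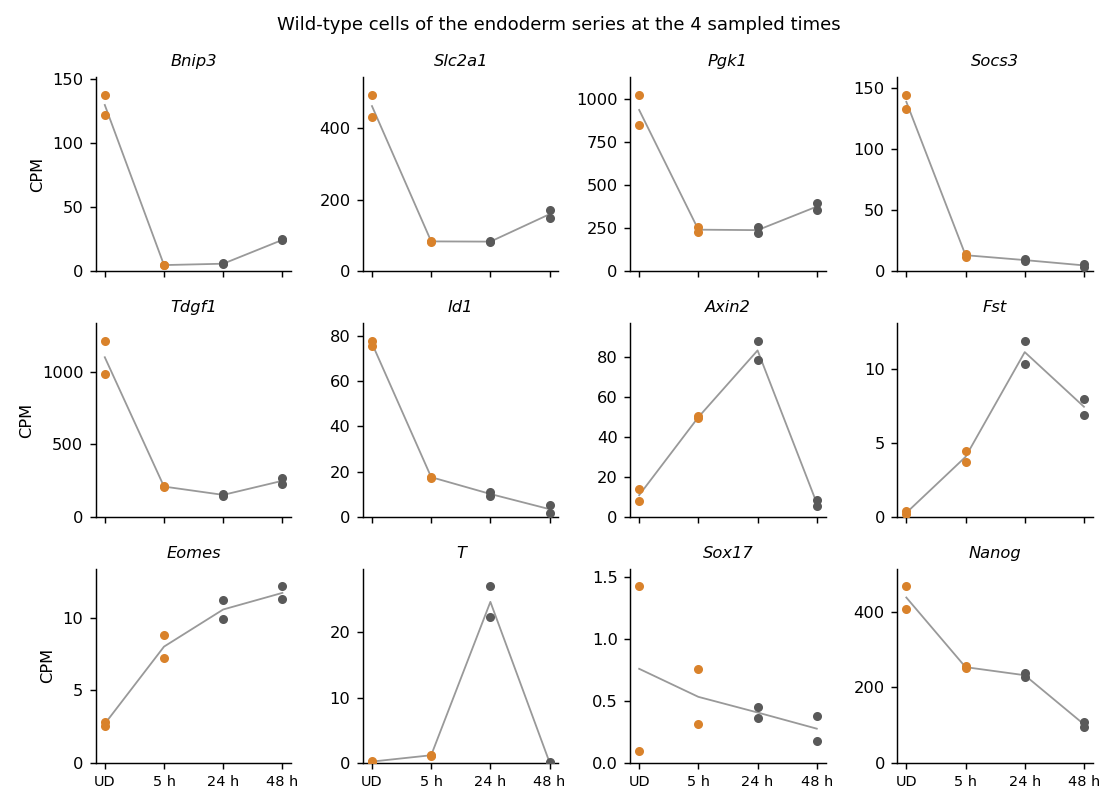
CPM of 12 genes in the WT libraries of the endoderm series at the 4 sampled times, undifferentiated (UD), 5, 24, and 48 h. Points are single libraries, orange for the 2 groups compared and gray for the later times, the line joins the means of the pairs, and each panel has its own linear axis from 0. Bnip3, Slc2a1, Pgk1, Socs3, Tdgf1, and Id1 drop between undifferentiated cells and 5 h, Axin2 and T are highest at 24 h, and Sox17 stays under 1.5 CPM.

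Markers of other cell types were read over whole lists, as summed CPM. The sum over 10 fibroblast markers was 13.9 and 14.1 CPM undifferentiated and 9.81 and 11 CPM at 5 h, with Col3a1, Postn, Lum, and Dcn at 0 in all 4 libraries. The sum over 7 markers of 2-cell-like cells was 5.97 and 8.43 CPM and then 1.93 and 3.77 CPM. For 12 extraembryonic endoderm markers it was 482 and 417 CPM and then 513 and 514 CPM, with Afp and Ttr at 0. For 6 neural markers it was 92.5 and 70.1 CPM and then 137 and 128 CPM. For 8 trophoblast markers it was 47.3 and 38 CPM and then 45.2 and 44.2 CPM. Cdx2, a homeobox gene of trophoblast and of posterior streak derivatives, was the only member of these 5 lists called, at 0.0947 and 0 CPM and then 1.78 and 1.34 CPM. Its fitted fold change rests on an undifferentiated level next to 0 and is not given, and the call was lost without any 1 of the 4 libraries. In bulk RNA, fewer cells of a type and less RNA per cell cannot be told apart.

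The next lists are of metabolism and growth. In the list of ATF4 targets and amino acid metabolism, 3 of 18 genes rose and 1 fell. Of all genes tested, 0.976% rose and 1.13% fell. Chac1, which degrades glutathione, was at 11.4 and 10.8 CPM undifferentiated and 32.4 and 35.6 CPM at 5 h (log2 fold change 1.62, SE 0.25, adjusted p = 8.62e-05). Sesn2, a stress-induced inhibitor of the growth kinase mTORC1, was at 69.4 and 55.7 CPM and then 130 and 130 CPM (log2 fold change 1.06). Slc7a5, the light chain of an amino acid transporter, was at 230 and 164 CPM and then 409 and 416 CPM (log2 fold change 1.06). Ddit4, also an mTORC1 inhibitor and a target of both HIF and ATF4, was at 47.7 and 34.0 CPM and then 11.0 and 11.2 CPM (log2 fold change -1.88, SE 0.20, adjusted p = 1.72e-06). All 3 rises were lost without undifferentiated replicate 2, at 1.58, 0.91, and 0.84, while Ddit4 was called in each case. Under upper quartile scaling Sesn2 and Slc7a5 had 0.93 and 0.94.

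In the list of sterol and fatty acid synthesis, 1 of 31 genes rose and 2 fell. Msmo1, an enzyme of cholesterol synthesis, was at 97.6 and 108 CPM undifferentiated and 38.2 and 37.2 CPM at 5 h (log2 fold change -1.45, SE 0.20). Insig1, which holds the sterol sensor in the endoplasmic reticulum, was at 63.5 and 54.2 CPM and then 27.6 and 29.4 CPM (log2 fold change -1.05). The cholesterol exporter Abca1 was at 27.4 and 19.2 CPM and then 49.1 and 46.5 CPM (log2 fold change 1.04). Insig1 was not called when any 1 library was left out (-1.16 to -0.92), Abca1 was not called without undifferentiated replicate 2 (0.81) or either 5 h library, and Msmo1 was not called without 5 h replicate 1 (-1.46, just past the p limit). Hmgcs1, of the early steps, had a log2 fold change of 0.05.

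Of 24 genes of ribosome biogenesis, 1 rose, Polr1a, the largest subunit of RNA polymerase I, at 131 and 99.2 CPM undifferentiated and 230 and 231 CPM at 5 h (log2 fold change 1.00, at the limit). It was under the limit without undifferentiated replicate 2 (0.82), without 5 h replicate 2 (0.97), and under upper quartile scaling (0.88). The median of the list was 0.39. Myc was at 46.1 and 35.04 CPM and then 47.3 and 51.01 CPM, not called. Of 15 p53 targets 0 were called by edgeR with TMM or by DESeq2, and upper quartile scaling called Bbc3 lower (-1.08). At an adjusted p under 0.05, edgeR with TMM gave 7 higher and 3 lower, beside 17.8% and 12.4% of all genes tested. Mdm2 was at 56.4 and 49.9 CPM and then 89.1 and 91.8 CPM (log2 fold change 0.77). In the list of SRF and YAP targets the kinase gene Lats2 was the 1 called higher among 16, at 1.51 and 1.97 CPM and then 3.32 and 4.78 CPM. It was not called without undifferentiated replicate 1 (1.04), undifferentiated replicate 2 (1.41), or 5 h replicate 2 (0.89), nor by DESeq2 (1.21), under upper quartile scaling (1.08), or with the 4 libraries (1.17) or 8 WT libraries (1.19) alone. None of 8 genes of DNA methylation and none of 12 PRC2 subunit genes was called by edgeR or DESeq2. At an adjusted p under 0.05, edgeR gave 3 higher and 0 lower of the first list and 4 higher and 2 lower of the second. These are to be set beside 17.8% higher and 12.4% lower of all genes tested. Of the subunits lost in the mutant lines, Mtf2 was at 448 and 509 CPM undifferentiated and 334 and 332 CPM at 5 h (log2 fold change -0.52) and Jarid2 at 467 and 352 CPM and then 583 and 609 CPM (0.54). The undifferentiated library used bore on these lists. Without undifferentiated replicate 1 there were 5 genes of ribosome biogenesis, 2 p53 targets, and 1 gene each of DNA methylation, core pluripotency, and the formative epiblast called higher.

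**Figure D4:**
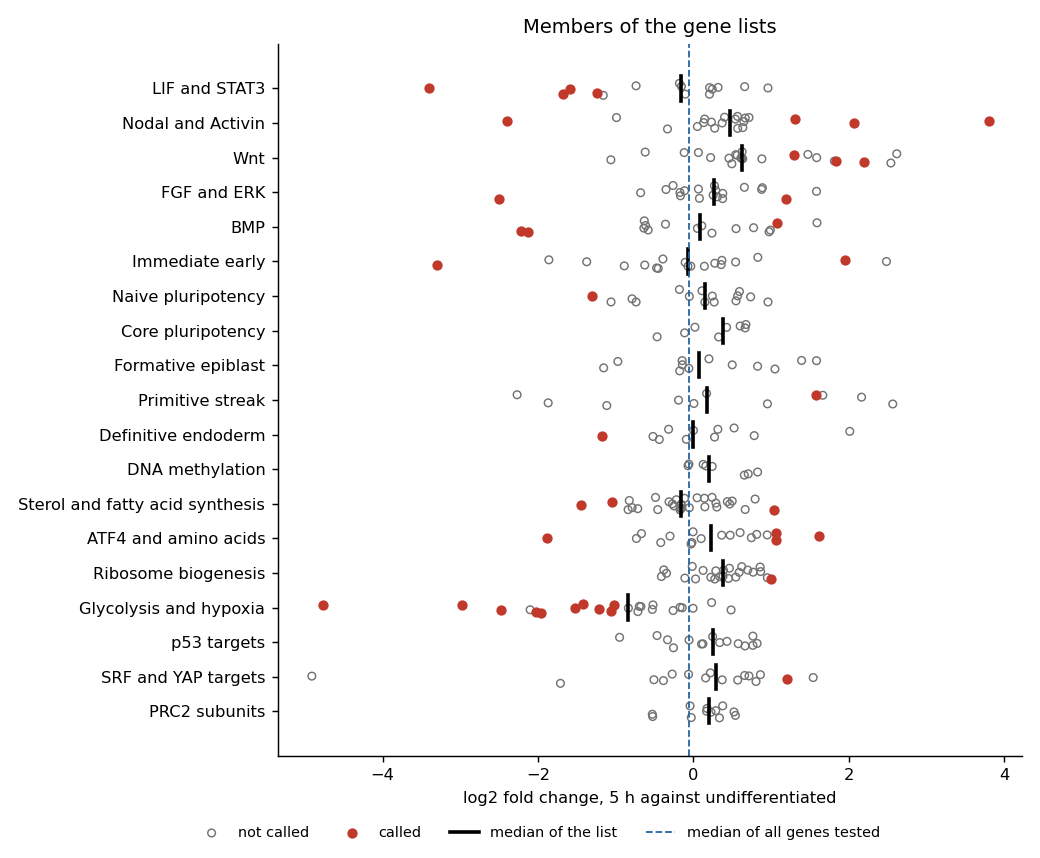
Log2 fold change at 5 h against undifferentiated WT cells for every tested member of 19 gene lists, 1 point per gene with vertical scatter for legibility. Filled red points are called genes, open points are not, the black bar is the median of a list, and the dashed line is the median of all 19261 genes at -0.05. The list of glycolysis and hypoxia has 10 called points, all below 0.

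Beyond the lists, genes were named by the size of their change. Among the called genes at 5 CPM or more, the largest rises by fold were those of Sall3, Chst15, Cachd1, Arhgef26, Axin2, Nt5e, Hlf, Pla2g7, Gm20362, and Mt1, with log2 fold changes of 1.97 to 2.64. Sall3, a zinc finger factor of the spalt family, was at 6.72 and 5.06 CPM undifferentiated and 37.4 and 36.1 CPM at 5 h (log2 fold change 2.64, SE 0.22, adjusted p = 8.91e-08). Cachd1, a membrane protein, was at 2.46 and 1.499 CPM and then 10.4 and 10.2 CPM (log2 fold change 2.38, SE 0.22, adjusted p = 2.49e-07). Nt5e, the ectoenzyme CD73 that makes adenosine, was at 1.61 and 1.78 CPM and then 7.41 and 7.37 CPM (log2 fold change 2.12, SE 0.21, adjusted p = 8.44e-07). Mt1, a metallothionein that binds zinc, was at 32.9 and 29.1 CPM and then 103 and 141 CPM (log2 fold change 1.97, SE 0.16, adjusted p = 3.38e-08). Of these 10, Chst15, Arhgef26, Hlf, and Gm20362 were not called without undifferentiated replicate 2, at log2 fold changes of 2.17, 1.85, 1.64, and 1.94. Hlf was also not called without either 5 h library and was at 2.74 without undifferentiated replicate 1, and Gm20362 was at 1.83 without 5 h replicate 1.

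The largest rises in CPM among called genes were those of Polr2a, Mybbp1a, Ubr4, Fat1, and Slc7a5. Polr2a, the largest subunit of RNA polymerase II, was at 235 and 158 CPM undifferentiated and 577 and 602 CPM at 5 h (log2 fold change 1.59, SE 0.15, adjusted p = 5.22e-07). Fat1, an atypical cadherin, was at 249 and 184 CPM and then 561 and 556 CPM (log2 fold change 1.37). The undifferentiated duplicates of Polr2a and Fat1 differed more than the 5 h duplicates but lay below both of them. Mybbp1a and Ubr4 had log2 fold changes of 1.02 and 1.03 and were under the fold limit without undifferentiated replicate 2 (0.81 and 0.84) and under upper quartile scaling (0.90 and 0.91).

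The largest falls by fold among called genes at 5 CPM or more were those of Gm6361, Ndufa4l2, Bnip3, A2m, Socs3, Ier3, Slc16a3, Grin1, Platr11, and Egln3. A2m, which encodes the plasma protease inhibitor alpha-2-macroglobulin, was at 12.4 and 8.53 CPM undifferentiated and 0.849 and 0.586 CPM at 5 h (log2 fold change -3.84, SE 0.41, adjusted p = 1.5e-06). Grin1, a subunit of the NMDA receptor, was at 7.77 and 7.78 CPM and then 0.54 and 1.09 CPM (log2 fold change -3.25, -3.86 without 5 h replicate 2, and not called at -3.25 without undifferentiated replicate 2 or -2.82 without 5 h replicate 1). Platr11, a non-coding RNA of embryonic stem cells, was at 4.17 and 5.90 CPM and then 0.386 and 0.67 CPM and lost its call without undifferentiated replicate 2 (-2.97) and without either 5 h library (-2.88 and -3.71). Gm6361, a processed pseudogene, was at 9.38 and 11.6 CPM and was listed at 0 in both 5 h libraries, but in the mesoderm series it was at 9.72 CPM in 1 of the 2 WT libraries at 5 h and 0 in the other, so its estimate is uncertain. The largest falls in CPM were those of Pkm, Rpph1, Dppa5a, Tdgf1, and Pgk1. Rpph1, the RNA of ribonuclease P, was at 2796 and 4509 CPM and then 1133 and 1875 CPM (log2 fold change -1.28). Its duplicates differed widely, and the fold was -0.89 without undifferentiated replicate 2 and -0.95 without 5 h replicate 1, neither called.

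The WT cells of the mesoderm series were sampled at the same time in another medium. There the 5 h cells had been given the factors of the mid primitive streak step, Activin A, BMP4, more CHIR99021, and FGF2, and they had undifferentiated libraries of their own. The 2 changes were compared in a fit over the 8 libraries, in which medium and experiment cannot be told apart. The undifferentiated libraries of the 2 series resembled each other by replicate number. The difference between replicates 1 and 2 correlated between the series with r = 0.46 over 10806 genes, and the replicates numbered 2 of the 2 series were at a root mean square log2 distance of 0.317, closer than the endoderm pair to each other at 0.345. Whether the series are independent experiments was not tested, and the p-values of this comparison hold only if they are. With edgeR, 0 of 16758 genes differed in their change at an adjusted p under 0.05 (0%), with 1206 at an unadjusted p under 0.05 and a smallest adjusted p of 0.147. DESeq2 gave 16 genes. Without replicate 1 of the undifferentiated mesoderm libraries edgeR gave 27, and without any 1 of the other libraries between 0 and 4. This does not show that the changes were equal, since the median SE of a difference was 0.265.

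Id1, the gene with that smallest adjusted p, had a log2 fold change of -2.11 in the endoderm medium and -0.83 in the medium with BMP4, a difference of -1.28 (SE 0.17). It was at 79.1 and 78.5 CPM undifferentiated and 42.3 and 46.4 CPM at 5 h in the mesoderm series. Id2 had -2.21 and -1.03, a difference of -1.17 (SE 0.25). Axin2 had 2.20 and, with more CHIR99021, 2.96, a difference of -0.76 (SE 0.29) with an adjusted p of 0.631. Socs3 had -3.40 and -2.78, and Bnip3 -4.76 and -4.93. In the mesoderm series Bnip3 was at 112 and 147 CPM undifferentiated and 3.76 and 4.79 CPM at 5 h, and Slc2a1 at 530 and 448 CPM and then 94.9 and 102 CPM. The 188 genes that rose had a median change of 1.24 in the mesoderm series, beside 1.24 in the endoderm series. For those that fell it was -1.31 over the 216 of 217 with a value, beside -1.37. These medians are a description, since the genes were selected in the endoderm series.

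A further comparison asked whether the change of WT cells also occurred in the Mtf2 null and Jarid2 null lines of the endoderm series. MTF2 and JARID2 are subunits that bring PRC2 to its targets. The study matches Mtf2 null cells with the line Pcl1-3 wt and Jarid2 null cells with JM8, and neither of these lines was used here, so the loss of the gene and the difference of line from E14 cannot be told apart. The targeted genes were read first. Mtf2 was at 34.8 and 31.1 CPM undifferentiated and 36.8 and 36.8 CPM at 5 h in Mtf2 null libraries, far below WT. Jarid2 was at 329 and 297 CPM and then 548 and 571 CPM in Jarid2 null libraries, near the WT levels given above, so its RNA does not check that label. At an adjusted p under 0.05, the change of WT minus that of Mtf2 null cells was positive at 1926 genes (10%) and negative at 1331 (6.91%). Against Jarid2 null cells it was positive at 112 genes (0.581%) and negative at 128 (0.665%). The count against Mtf2 null cells was 2135 without WT 5 h replicate 1. Against Jarid2 null cells it was 84 without WT 5 h replicate 1, 99 without WT 5 h replicate 2, and 141 without WT undifferentiated replicate 2. The genes that rose in WT had a median log2 fold change of 1.24 in WT, 0.364 in Mtf2 null, and 0.963 in Jarid2 null cells, and those that fell had -1.37, -0.65, and -1.14, as a description, since they were selected in WT.

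Most of the glycolysis and hypoxia genes that fell in WT cells changed by less in either null line. Bnip3 was at 25.7 and 21.6 CPM undifferentiated and 12.3 and 15.8 CPM at 5 h in Mtf2 null cells, and at 26.2 and 32.4 CPM and then 5.59 and 5.13 CPM in Jarid2 null cells. All 4 undifferentiated null libraries were below both WT ones, and the 5 h libraries of WT and Jarid2 null cells were close. The difference of the changes was -4.02 (SE 0.24, adjusted p = 4.19e-09) against Mtf2 null and -2.33 (SE 0.26, adjusted p = 3.58e-05) against Jarid2 null cells. Slc16a3 was at 11.5 and 11.1 CPM and then 14.0 and 12.9 CPM in Mtf2 null cells and at 31.5 and 33.1 CPM and then 11.5 and 14.3 CPM in Jarid2 null cells. Ldha was at 319 and 338 CPM and then 619 and 581 CPM in Mtf2 null cells, higher at 5 h where WT was lower, and the difference was -2.29 (SE 0.15, adjusted p = 4.19e-09). Of the 10 genes of the list that fell in WT, which their change in WT had selected, 9 had a negative difference past the limit against Mtf2 null cells and 8 against Jarid2 null cells, where Pkm had an adjusted p of 0.0504. Vegfa was the exception in both, with changes of -1.36 and -1.80 in the null lines.

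The LIF targets Socs3, Junb, Pim3, and Bcl3 were called lower in each of the 3 lines. Socs3 had a log2 fold change of -2.98 in Mtf2 null and -2.80 in Jarid2 null cells, and the differences from WT, -0.43 and -0.60, had adjusted p-values of 0.283 and 0.255. Junb had -1.45 and -1.75. Tdgf1 fell by less in the null lines, with -1.11 and -1.17 and differences of -1.28 (SE 0.19, adjusted p = 8.57e-05) and -1.23 (SE 0.19, adjusted p = 0.0017). Axin2 had 3.26 in Mtf2 null cells, further than in WT by a difference of -1.07 (SE 0.31, adjusted p = 0.0204). Tcf7l1 had -0.15 in Mtf2 null cells, a difference of 1.45 (SE 0.22, adjusted p = 0.000125), and 0.96 in Jarid2 null cells. Id1 had -0.63 in Mtf2 null and -2.18 in Jarid2 null cells, a difference from the first of -1.49 (SE 0.30, adjusted p = 0.0018). For Eomes the changes were 0.95 and 1.85, and neither difference from WT passed (adjusted p = 0.184 and 0.804).

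**Figure D5:**
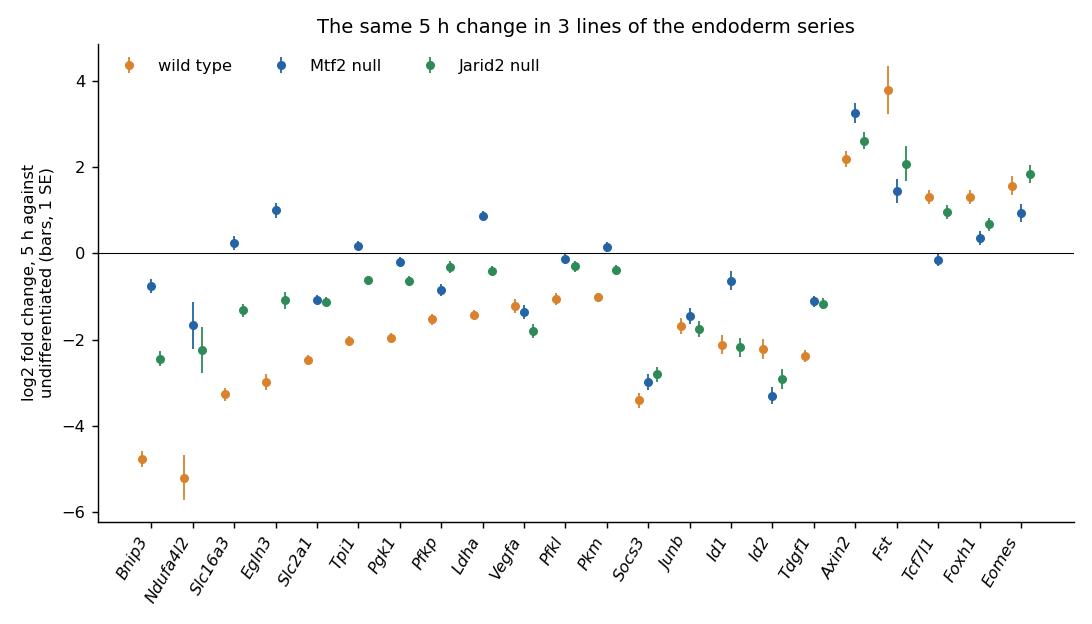
Log2 fold change at 5 h against the line's own undifferentiated cells for 22 genes in WT (orange), Mtf2 null (blue), and Jarid2 null (green) cells of the endoderm series, with bars of 1 SE. From Bnip3 to Pkm the WT points lie below those of both null lines except at Vegfa, while for Socs3 and Junb the 3 points lie near each other.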

How the data were processed

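RNA of E14 cells was depleted of ribosomal RNA and sequenced as paired ends. The deposited table holds estimated counts per gene, which the authors made with Salmon against the mouse build GRCm38 (mm10). The submitters' processing notes also name CASAVA, Bowtie2, HTSeq, and DESeq2, without versions. The estimated counts (73.1% whole numbers) were rounded. All 24 libraries of the endoderm series were fitted with edgeR 4.0.16 in R 4.3.3 by quasi-likelihood with TMM scaling (factors 0.85 to 1.11), after a filter with a minimum count of 10 and minimum total of 15, with 1 mean per line and time. P-values were adjusted by Benjamini-Hochberg over the genes tested. Called genes passed 0.001 on the adjusted p and had a log2 fold change of more than 1 in either direction, and differences of changes at an adjusted p under 0.05. The difference from the mesoderm series was fitted over 8 WT libraries. SEs were taken from the F statistics. DESeq2 1.42.0, other scalings and filters, a replicate block, and leaving out each library served as alternatives. The tests were also run on simulated data. There 0 unchanged genes were called between undifferentiated and 5 h WT libraries. For the difference between series 9 unchanged genes of 16758 were called, and for that between lines 16 of 19261. Each gene had the same simulated spread in all groups, but the undifferentiated WT duplicates lay further apart than the 5 h duplicates. These counts therefore do not give the rate of false calls in the data.

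The genes named were all members of the lists, the 10 called genes in each direction with the largest fold at 5 CPM or more in the higher group and no overlap between the groups, the 5 with the largest change in mean CPM, and the 5 with the largest difference in each direction for each difference of changes. The samples, lists, and motifs were chosen with earlier results of these data known. All 54393 gene IDs matched a symbol in GENCODE M21, which also gave coordinates. Promoters came from RefSeq with GRCm38.p6, as windows of 300 bases. Python 3.11.15 with numpy 2.4.6 and matplotlib 3.10.9 was used for sequences and figures. Some members of the lists are not reported by name here. Embryoid body libraries and the later mesoderm times were not analysed here.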

Additional observations from a re-analysis of the deposited data

Results flagged for a closer look

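Genes named in the report are listed here where their change from undifferentiated cells to 5 h differed between WT cells and a null line of the endoderm series at an adjusted p under 0.05 of the test of that difference. The values are the log2 fold change of WT minus that of the null line. There were 46 such genes against Mtf2 null cells, 23 with a negative and 23 with a positive difference, and 21 against Jarid2 null cells, 16 negative and 5 positive. Many were named for their fold in WT, which makes a difference from other lines more likely, and the loss of a gene and the line cannot be told apart.

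Against Mtf2 null cells, the genes of glycolysis and hypoxia with a negative difference were Bnip3 (-4.02), Egln3 (-3.98), Slc16a3 (-3.52), Ndufa4l2 (-3.54), Ldha (-2.29), Tpi1 (-2.21), Pgk1 (-1.76), Slc2a1 (-1.40), Pkm (-1.17), Pfkl (-0.93), and Pfkp (-0.69). Other negative differences were those of Ier3 (-2.54), Insig1 (-1.85), Id1 (-1.49), Msmo1 (-1.47), Tdgf1 (-1.28), Nt5e (-1.21), Axin2 (-1.07), Rpph1 (-0.99), and Dppa5a (-0.80). For Axin2 and Nt5e, which rose in WT, a negative difference means a higher log2 fold change in Mtf2 null cells. Positive differences among genes of the lists were those of Cdx2 (3.97), Atf3 (2.65), Fst (2.35), Chac1 (1.96), Abca1 (1.46), Tcf7l1 (1.45), Slc7a5 (1.29), Sesn2 (1.19), Lats2 (1.103), Id2 (1.08), and Foxh1 (0.96). Id2, which fell in WT, had a log2 fold change of -3.30 in Mtf2 null cells. Among genes named for their fold or CPM change, positive differences were those of Gm20362 (2.29), Chst15 (1.94), Polr2a (1.65), Ubr4 (1.29), Fat1 (1.01), Pla2g7 (1.00), and Mt1 (0.96).

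Besides Bnip3 and Egln3, the largest differences from Mtf2 null cells in each direction, at 5 CPM or more in a group, included 2 genes with a larger change in the null line than in WT. Wnt7b, which encodes a Wnt ligand, was at 0.379 and 0.562 CPM undifferentiated and 1.31 and 1.51 CPM at 5 h in WT and at 14.1 and 14.7 CPM and then 3.02 and 2.03 CPM in Mtf2 null cells, a difference of 4.07. Wt1, a zinc finger factor, was at 0.947 and 0.656 CPM and then 0.849 and 1.26 CPM in WT and at 0.167 and 0.343 CPM and then 6.14 and 7.37 CPM in Mtf2 null cells, a difference of -4.30. Of these largest differences, 6 belonged to genes at 0 in both libraries of at least 1 of the 4 groups, so that the fitted differences rest on the prior count and give no size: Kansl2-ps (9.20), Gm4767 (8.30), Rps3a2 (6.47), Gm2974 (5.65), Gm6916 (-4.92), and Gm6361 (-10.14). Rps3a2, a processed pseudogene, was at 493 and 647 CPM in undifferentiated WT cells and 2.01 and 0.943 CPM in undifferentiated Mtf2 null cells.

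Against Jarid2 null cells, the genes of glycolysis and hypoxia with a negative difference were Bnip3 (-2.33), Slc16a3 (-1.95), Egln3 (-1.89), Tpi1 (-1.41), Slc2a1 (-1.35), Pgk1 (-1.31), Pfkp (-1.21), Ldha (-1.02), and Pfkl (-0.76). The other negative differences were those of A2m (-3.73), Grin1 (-2.99), Lrrn2 (-2.53), Ier3 (-2.38), Trh (-1.73), and Tdgf1 (-1.23), besides the fitted value of Gm6361 (-9.16) that rests on libraries at 0. A2m was at 1.29 and 1.54 CPM undifferentiated and 1.02 and 1.59 CPM at 5 h in Jarid2 null cells, below undifferentiated WT cells in all 4 libraries. Trh was at 54.8 and 45.0 CPM and then 73.0 and 73.0 CPM. Lrrn2, a leucine-rich repeat membrane protein, rose in WT from 1.80 and 1.41 CPM to 6.41 and 6.03 CPM, was at 0.258 and 0.384 CPM and then 6.55 and 8.03 CPM in Jarid2 null cells, and was not called in WT without undifferentiated replicate 2 (1.79). Positive differences were those of Mir6236 (3.42), Ftl1-ps2 (2.80), Ubap1l (2.60), Lars2 (2.57), and Tgfb1i1 (2.29). The Jarid2 null undifferentiated libraries of Lars2 were at 65.8 and 300 CPM, of Mir6236 at 4.33 and 28.1 CPM, and of Ftl1-ps2 at 43.3 and 12.9 CPM, so these 3 differences depend on libraries that lay far apart.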

How the results depend on the processing

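For the change from undifferentiated to 5 h, DESeq2, other scalings, and a stricter filter gave 407 to 454 called genes beside 405. The count moved to 672 with no filter on low counts, to 260 with the 8 WT libraries of the series, to 184 with the 4 libraries alone, and to 125 to 734 when 1 library was left out. Other limits gave 5819 genes at an adjusted p under 0.05, 1149 at that p with a log2 fold change above 1, and 61 at an adjusted p under 0.001 with a log2 fold change above 2. For the difference between the endoderm and mesoderm series, where edgeR gave 0, DESeq2 gave 16, no filter gave 184, and leaving out 1 library gave 0 to 27. For the difference from Mtf2 null cells, 3257 genes became 513 at the stricter limits and 2135 to 3582 with 1 WT library left out. For the difference from Jarid2 null cells, 240 became 394 with DESeq2, 581 with no filter, 17 at the stricter limits, and 84 to 353 with 1 WT library left out. Replicate numbers were shared between the groups, but they showed no pairing of the undifferentiated and 5 h WT libraries, whose deviations had r = -0.013. Over 66 pairs of groups r ran from -0.33 to 0.38, and 22 pairs were above 0.1. A replicate block gave 420 genes and changed the other counts by less than 1.5 times. The cause of these moves was not tested, apart from fewer samples or more genes tested where the setting itself brings them. Of 62 called genes named, 0 reversed in any alternative, 31 were past the limits in every one, 21 lost the call under some scaling, tool, or choice of samples, and 30 with some library left out.

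The precision is limited by 2 libraries a group. Data were simulated on gene means over all groups of the endoderm series, with its library sizes and pooled spread. The spread of a gene was the same in all groups, so the wider spread of the undifferentiated WT duplicates was not modelled. The changed genes were drawn from genes above a minimum expected count, so the shares do not describe genes at low counts. Of genes changed 4-fold, 99% were called. Of genes changed 2-fold, which lie at the fold limit itself, 40% were called. Upper quartile scaling lowered the median of all genes, which matters for genes just above the fold limit.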

Other observations

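The genes of these paragraphs were picked from the called genes after their values were seen, so they are descriptions and no more than that. No fold change with a library left out is given for them. Further genes known as HIF targets or enzymes of sugar and collagen metabolism were among those that fell. Bnip3l, the paralog of Bnip3, was at 191 and 206 CPM undifferentiated and 86.9 and 85.8 CPM at 5 h (log2 fold change -1.20, SE 0.12, adjusted p = 1.26e-06). Fam162a, a mitochondrial HIF target, was at 72.2 and 88.3 CPM and then 18.8 and 21.5 CPM (log2 fold change -1.99, SE 0.12, adjusted p = 4.27e-10). Pgm1, which links glycogen to glycolysis, was at 36.8 and 32.5 CPM and then 7.64 and 8.63 CPM (log2 fold change -2.09, SE 0.13, adjusted p = 9.03e-10). All 3 had both 5 h libraries below both undifferentiated ones, as did all 217 genes that fell. The log2 fold changes were -2.85 for the glycogen phosphorylase Pygl, -1.98 for the aldolase Aldoc, and -1.49 for the enolase Eno2. They were -1.65 for P4ha1 and -1.44 for Plod2, which hydroxylate collagen, -1.85 for the collagen cross-linker Loxl2, -1.05 for the prolyl hydroxylase Egln1, and -1.93 for the repressor Bhlhe40. Ccng2, a cyclin of resting cells, was at 25.3 and 24.3 CPM and then 3.47 and 4.86 CPM (log2 fold change -2.58).

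Single genes of metal handling were called in both directions. Mt2, the partner of Mt1, was at 68.5 and 78.6 CPM undifferentiated and 195 and 233 CPM at 5 h (log2 fold change 1.54, SE 0.14, adjusted p = 1.79e-07), and the zinc exporters Slc30a1 and Slc30a2 had log2 fold changes of 1.32 and 1.60. Hmox1, heme oxygenase, was at 57.8 and 42.4 CPM and then 176 and 183 CPM (log2 fold change 1.84). Tfrc, the receptor for iron uptake, fell from 573 and 667 CPM to 305 and 279 CPM (log2 fold change -1.08). Jag1, a Notch ligand, was at 9.76 and 6.75 CPM and then 32.0 and 30.1 CPM (log2 fold change 1.91). Of genes known from the interferon response and antigen presentation, Ifitm1 was at 67.4 and 72.5 CPM and then 22.3 and 23.7 CPM and H2-K1 at 28.04 and 29.1 CPM and then 8.72 and 8.96 CPM, with log2 fold changes of -1.60 and -1.69, while Ddx58, which encodes the RNA sensor RIG-I, was at 15.3 and 14.6 CPM and then 37.4 and 36.6 CPM and Samd9l at 2.27 and 2.34 CPM and then 6.25 and 6.53 CPM, with log2 fold changes of 1.30 and 1.47.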
